A study of Mus musculus with 12 samples.

Results

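Enzymes of the glutathione S-transferase (GST), UDP-glucuronosyltransferase (UGT) and sulfotransferase (SULT) families were followed across 12 mouse liver RNA-seq libraries. The rule for taking a gene reads only its symbol and the type of its transcripts. A gene was taken when its symbol started with Gst and one of the class letters a, k, m, o, p, t or z, with Ugt1, Ugt2 or Ugt3 followed by a or b and a number, or with Sult and a number, and when it had at least 1 protein-coding transcript. This gave 66 of the 56065 genes listed, namely 24 GST, 21 UGT and 21 SULT genes. The same patterns also matched 8 pseudogenes or noncoding genes, which were left out.

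The libraries were made from poly(A)-selected liver RNA and fall into 3 groups of 4, numbered 1 to 4 in each. All mice carried floxed alleles of the aryl hydrocarbon receptor (AhR fl/fl), the labels name no Cre, and the diets started at 8 weeks of age and ran for 20 weeks. MD+CA mice ate a diet with 2% cholesterol, 20 kcal% from fructose and 40 kcal% from fat, which is used to produce metabolic dysfunction-associated steatohepatitis (MASH), and received cinnabarinic acid at 12 mg/kg in 0.2% DMSO by intraperitoneal injection 3 times a week. MD mice ate the same diet and received the 0.2% DMSO vehicle on the same schedule. CD mice ate a control diet with 10 kcal% fat and matched sucrose, and the labels do not say whether they were injected. Cinnabarinic acid is formed from tryptophan through the kynurenine pathway and activates AhR, and the study asked whether it protects the liver in MASH. The labels do not say outright that the libraries of a group are from separate mice, and p-values measure the spread between these libraries whichever the case.

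Some libraries stood apart or went against their labels. All mice were labelled male, but Xist, which is transcribed from the inactive X chromosome of females, had 619 to 947 CPM (reads scaled to a common library size) in the 12 libraries, and the Y-linked genes Ddx3y, Kdm5d, Uty and Eif2s3y had 0 reads in all 12. Libraries held 9089586 to 14492587 assigned reads, so that 3 reads corresponded to 0.203 to 0.380 CPM. Mitochondrially encoded genes took 4.97 to 7.94% of reads in MD+CA, 6.16 to 17.5% in MD and 5.72 to 6.63% in CD. Fragments were shortest in MD 2, MD 1 and MD+CA 1, as judged by the length allowance the quantification used, and MD 2 also had the lowest median rank correlation with the other libraries, 0.920, against 0.945 to 0.967 for the rest. Values without these 3 libraries are given beside several of the results they touch. Hepatocyte markers were abundant in every library, with a sum of 38255 to 75846 CPM.

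These families carry out conjugation, the step in which a large water-soluble group is joined to a drug, hormone, bile pigment or reactive lipid so that it can be excreted. GST enzymes join the tripeptide glutathione to electrophiles. UGT enzymes transfer glucuronic acid from UDP-glucuronate, and SULT enzymes transfer sulfate from the donor PAPS. All are rich in hepatocytes, and several are controlled by the xenobiotic sensors AhR, CAR, PXR and NRF2. In mouse liver the pi class of GST is known to be more abundant in males, and Sult2a1, Sult2a2 and Sult3a1 more abundant in females.

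The Ugt1a genes are the clearest case in which sequence decides how reads are divided. They lie in a row on chromosome 1, each with its own first exon, and all are spliced to 1 common set of later exons. The coding sequences of the 9 Ugt1a genes run from 1587 to 1608 bases, and their last 740 bases are identical. The joint is shown here for 4 of them as 30 bases of the gene's own exon in lower case followed by the first 30 bases of the shared end in capitals, read 5′ to 3′ from the GENCODE M21 transcripts.
Ugt1a5: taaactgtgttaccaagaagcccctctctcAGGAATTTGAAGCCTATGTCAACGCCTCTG
Ugt1a2: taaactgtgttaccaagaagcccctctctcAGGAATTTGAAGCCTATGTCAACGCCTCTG
Ugt1a1: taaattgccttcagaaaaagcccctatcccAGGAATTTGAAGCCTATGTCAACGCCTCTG
Ugt1a6a: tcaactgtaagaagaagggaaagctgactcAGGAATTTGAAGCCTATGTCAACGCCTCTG
The capitals are the same in all 9 genes, and the 30 bases before them take 7 distinct forms. Ugt1a5 and Ugt1a2 are alike before the joint too, with their last 854 coding bases identical. Of the 31-base stretches in Ugt1a5 transcripts, 34.7% occur in no other gene, and the share is 41.5% for Ugt1a1 and ranges from 15.8% for Ugt1a6b to 47.0% for Ugt1a6a. A read from the shared end is therefore divided between these genes by the quantification. The same holds for Sult2a1, with 44.4% of its stretches its own, and Sult2a2, with 25.5%, for Gstp1 (61.5%) and Gstp2 (39.7%), and for Gsta1 (7.14%) and Gsta13 (4.38%). The smallest share was that of Ugt2a1, 2.20%, followed by Gsta13 and by Ugt2a2 with 6.35%. By contrast 96.3% of the stretches of Gstt2 and 99.5% of those of Gstt1 were found in no other gene.

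Levels were compared between genes in TPM, a transcript abundance scaled for length and depth. The most abundant GST was Gstm1, a mu class enzyme, with a median of 1269 TPM over the 12 libraries and a range of 431 to 2717. Gsta3, the alpha class enzyme that detoxifies the epoxide of aflatoxin in mice, had 855 TPM (317 to 1291). Gstz1, which acts in tyrosine breakdown as maleylacetoacetate isomerase, had 400.1 TPM (297 to 511). These 3 genes stood above every other GST by their median level. Among UGT genes the order was flatter. Ugt1a1, the enzyme that conjugates bilirubin, had a median of 188 TPM (117 to 291), Ugt2b5 had 185 TPM (67.5 to 294) and Ugt2b36 had 169 TPM (100.4 to 243), so neighbours in this order overlapped widely. Among SULT genes the phenol sulfotransferase Sult1a1 led with 465 TPM (217 to 631), followed by Sult1d1, which sulfates catecholamines, with 285 TPM (119 to 401), and by Sult2a2, one of the sulfotransferases of bile acids and steroids, with 265 TPM (37.5 to 601). The range of Sult2a2 covered the ranges of both genes above it in part.

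**Figure D1:**
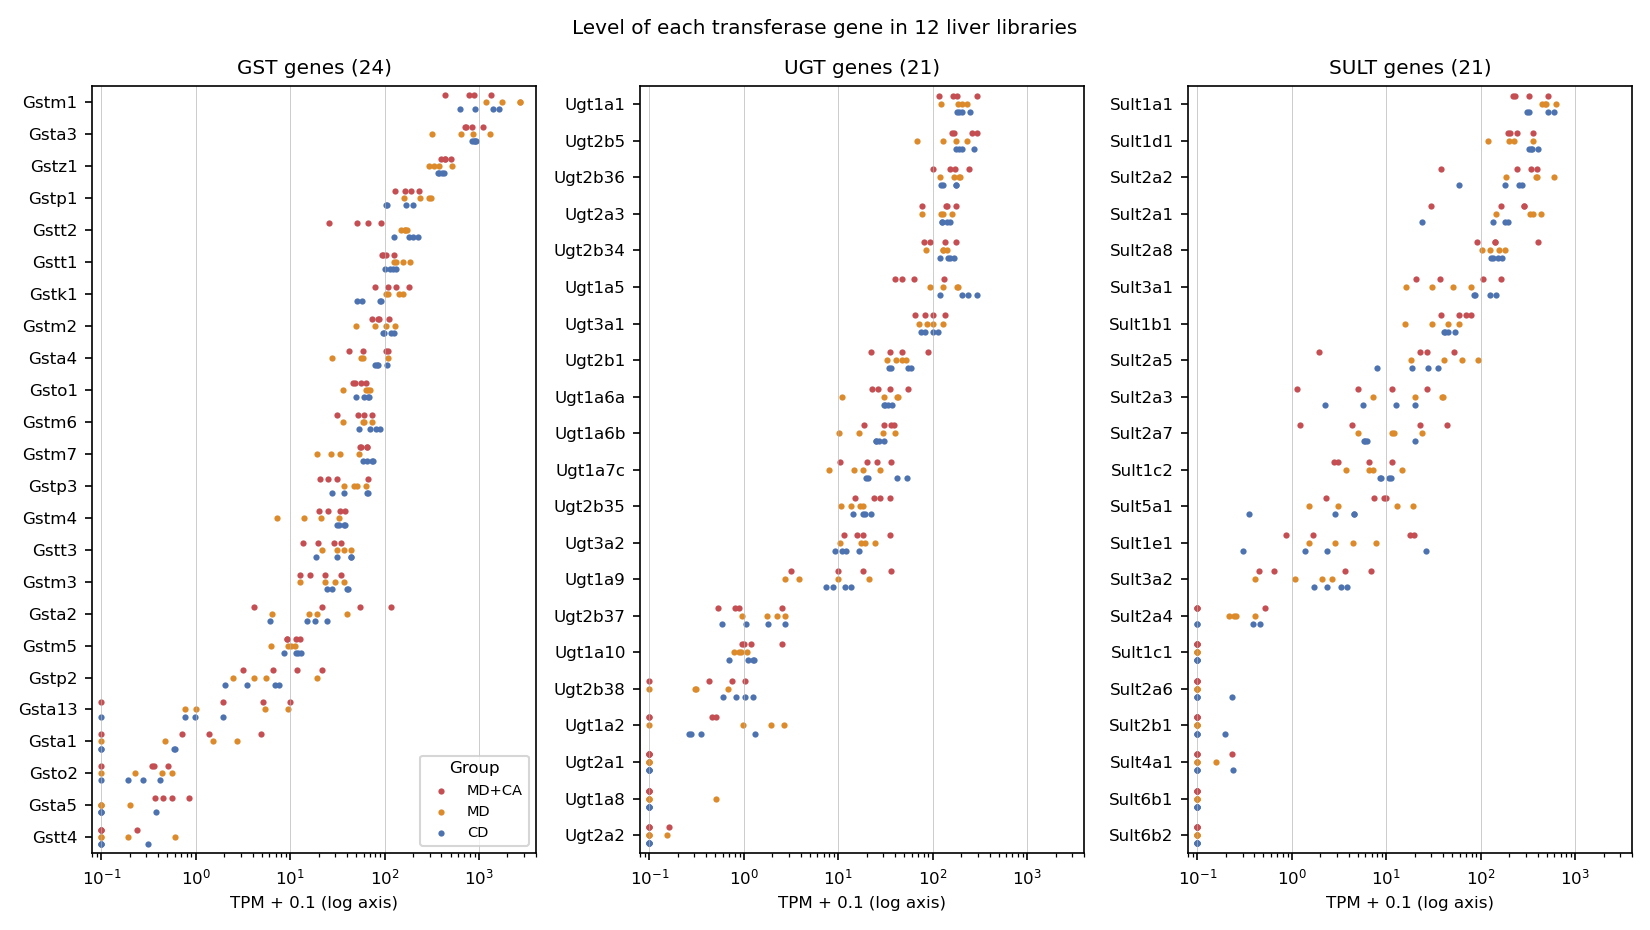
Level of each of the 66 transferase genes in the 12 libraries, as TPM plus 0.1 on a log axis, with MD+CA above MD and CD in each row. Gstm1, Gsta3 and Gstz1 lead the GST panel, the leading UGT genes lie close together near 100 to 200 TPM, and the genes at the foot of each panel are at or near 0.

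The genes also differed in how much they varied inside a group. Among genes with a median of at least 10 CPM, the coefficient of variation averaged over the 3 groups was smallest for Gstz1, 7.93%, followed by Sult1d1 with 14.5%, Gsto1 with 15.7% and Gstt1 with 16.8%. It was largest for Ugt1a9 with 65.3%, Sult2a5 with 62.3%, Sult3a1 with 54.5% and Sult2a1 with 51.1%, apart from Gsta2 with 72.2%. Differences between groups in Sult2a and Sult3a genes therefore stand against a wide spread, and those in Gstz1 and Gstt1 against a narrow one.

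Summed over a family, GST transcripts reached 3140.4 ± 653 TPM in MD+CA, 4409 ± 370.5 TPM in MD and 3529 ± 578 TPM in CD (SD, n = 4). UGT transcripts summed to 1199 ± 406 TPM in MD+CA, 1152 ± 289.9 TPM in MD and 1342 ± 131 TPM in CD. For SULT transcripts the sums were 1435 ± 592 TPM in MD+CA, 1784 ± 492 TPM in MD and 1484 ± 325 TPM in CD. The GST sums in TPM of MD+CA and MD did not overlap between libraries, while the UGT and SULT sums overlapped in every pair of groups. Summed as CPM, which are not scaled for length, GST genes came to 2491 to 2968 CPM in MD+CA and 2565 to 3756 CPM in MD, and these groups overlapped, with MD 2 lowest of MD. Most of the GST difference lay in the mu class, with 1129 ± 414 TPM in MD+CA, 2322 ± 687 TPM in MD and 1468 ± 477 TPM in CD. Within the class it lay in Gstm1, with 862 ± 380 TPM in MD+CA, 2088 ± 753 TPM in MD and 1138 ± 456 TPM in CD. No other mu gene had a group mean above 109.4 TPM. On coding transcripts alone Gstm1 came to 497 ± 120 CPM in MD+CA, 576 ± 239 CPM in MD and 636 ± 109 CPM in CD. Leaving out the 3 short-fragment libraries leaves MD 3 and MD 4 alone in MD. The GST sums were then 2346 to 3308 TPM in MD+CA and 4161 to 4215 TPM in MD, and the mu class sums 634 to 1194 TPM in MD+CA and 1507 to 2000.5 TPM in MD. These sums still count a Gstm1 transcript with no defined coding sequence. It had 81.2 and 262 CPM in MD 3 and MD 4, and 26.3 to 44.5 CPM in the remaining MD+CA libraries. In bulk tissue a lower level can come from less RNA per cell or from fewer cells of a type, and these cannot be told apart here.

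**Figure D2:**
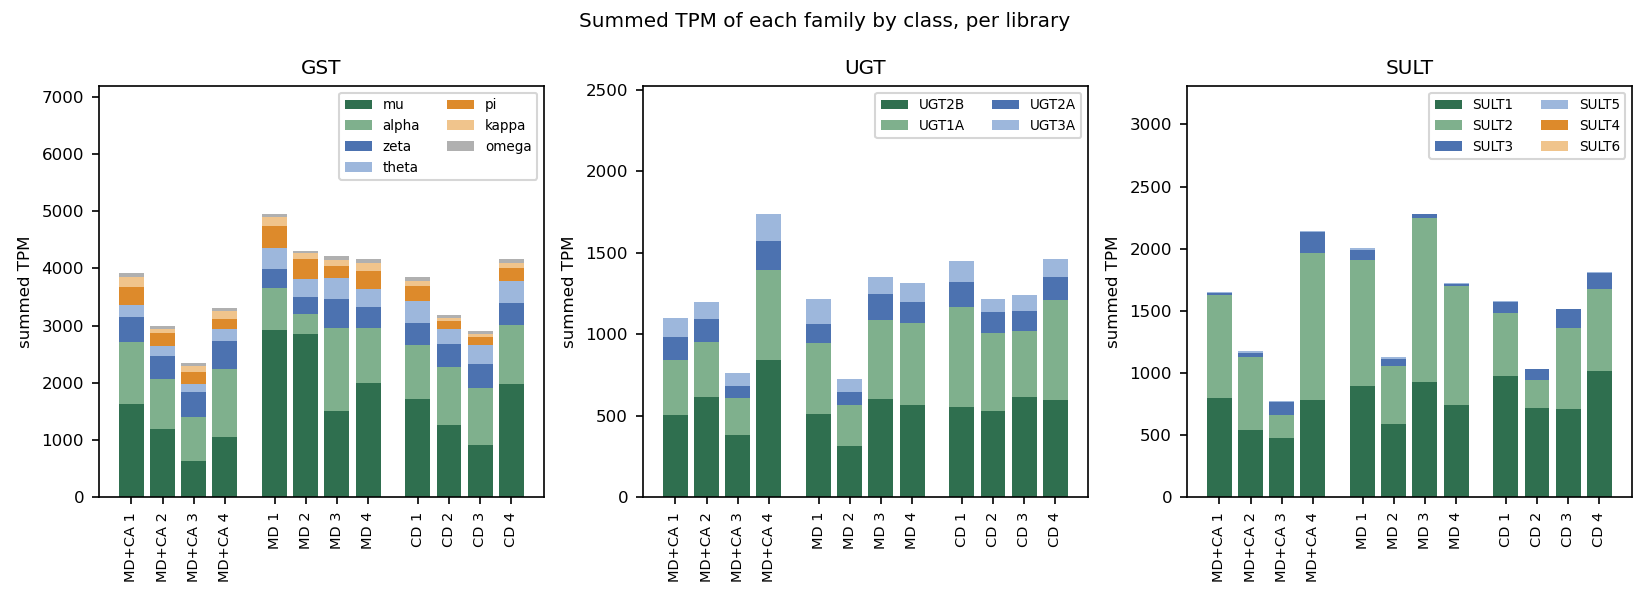
Summed TPM of the GST, UGT and SULT genes in each library, stacked by class, with the MD+CA libraries left of MD and CD. The mu class (bottom segment of the GST panel) is tallest in MD 1 and MD 2, and the UGT total of MD 2 is the lowest of the 12.

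Of the 66 genes, 52 had enough reads to be tested (21 GST, 17 UGT and 14 SULT), with edgeR's quasi-likelihood test and p-values adjusted over all 13631 genes tested. Of these 52, 1 passed an adjusted p of 0.05 in MD+CA vs MD, Gstt2, which was lower, against 2.71% of all genes tested and 1.64% of all genes called lower. In MD vs CD none passed, against 0.088% of all genes, and 11 of 52 had an unadjusted p under 0.05, or 21.2%, against 19.9% of all genes. DESeq2 and limma voom each called 3 in that comparison, Gstk1 and Gstp1 higher and Gstm7 lower. The MD+CA vs CD comparison had 2 of the 52 passing, Gstt2 and Ugt1a5, both lower, or 3.85%, against 0.528% of all genes and 0.308% of all genes called lower. The members' shares at an unadjusted p under 0.05 were 17.3% in MD+CA vs MD, against 23.2% of all genes, and 17.3% in MD+CA vs CD, against 10.5%. The libraries of 2 groups did not overlap for 4 of the 52 in MD+CA vs MD, or 7.69%, against 10.2% of all genes, for 4 in MD vs CD against 13.1% and for 3, or 5.77%, in MD+CA vs CD against 6.4%. In MD+CA vs MD and MD vs CD these shares lie near or below those of all genes, so they are no result about the families. The shares at an adjusted and at an unadjusted p in MD+CA vs CD are above those of all genes, and both called genes there lost their call when most single libraries were left out. Of the 9 members with an unadjusted p under 0.05 there, 6 were higher and 3 lower. Among the 6 are Gsta1, Gsta13 and Gsta2, which share sequence. With protein-coding transcripts only, the number was 6 of 52, against 1226 of 13364 genes.

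For MD+CA vs MD, 35 of the 52 log2 fold changes were below 0 and the median of all 52 was -0.16, beside -0.00 over all genes tested. That median moved with single libraries and settings. It was -0.08 without MD 1, -0.09 without MD+CA 3, -0.30 without MD+CA 4, -0.31 without MD 2, -0.37 with limma voom and -0.07 with the transcript length offset. In MD vs CD 31 of 52 were above 0 with a median of 0.10, beside 0.04 over all genes. The median was 0.02 without MD 3, 0.04 without MD 4, 0.05 without CD 2, 0.06 without MD 1, and 0.22 without MD 2 or without CD 4. Among them 10 of the 11 with an unadjusted p under 0.05 were higher in MD, or 19.2% of the 52, against 10.5% of all genes. Of these 10, 4 are Sult2a1, Sult2a2, Sult2a3 and Sult2a5, which share sequence and so are not separate observations. With near-identical members summed, 7 of 30 units had an unadjusted p under 0.05 in either direction, against 2721 of 13609 genes. Both comparisons use the MD libraries, so a high or low MD value enters both with opposite signs. For MD+CA vs CD, 24 of 52 were above 0 with a median of -0.06, beside 0.02 over all genes. Over the leave-one-out fits it lay between -0.15 (without MD+CA 4) and -0.01 (without CD 4), and with the transcript length offset it was 0.03.

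**Figure D3:**
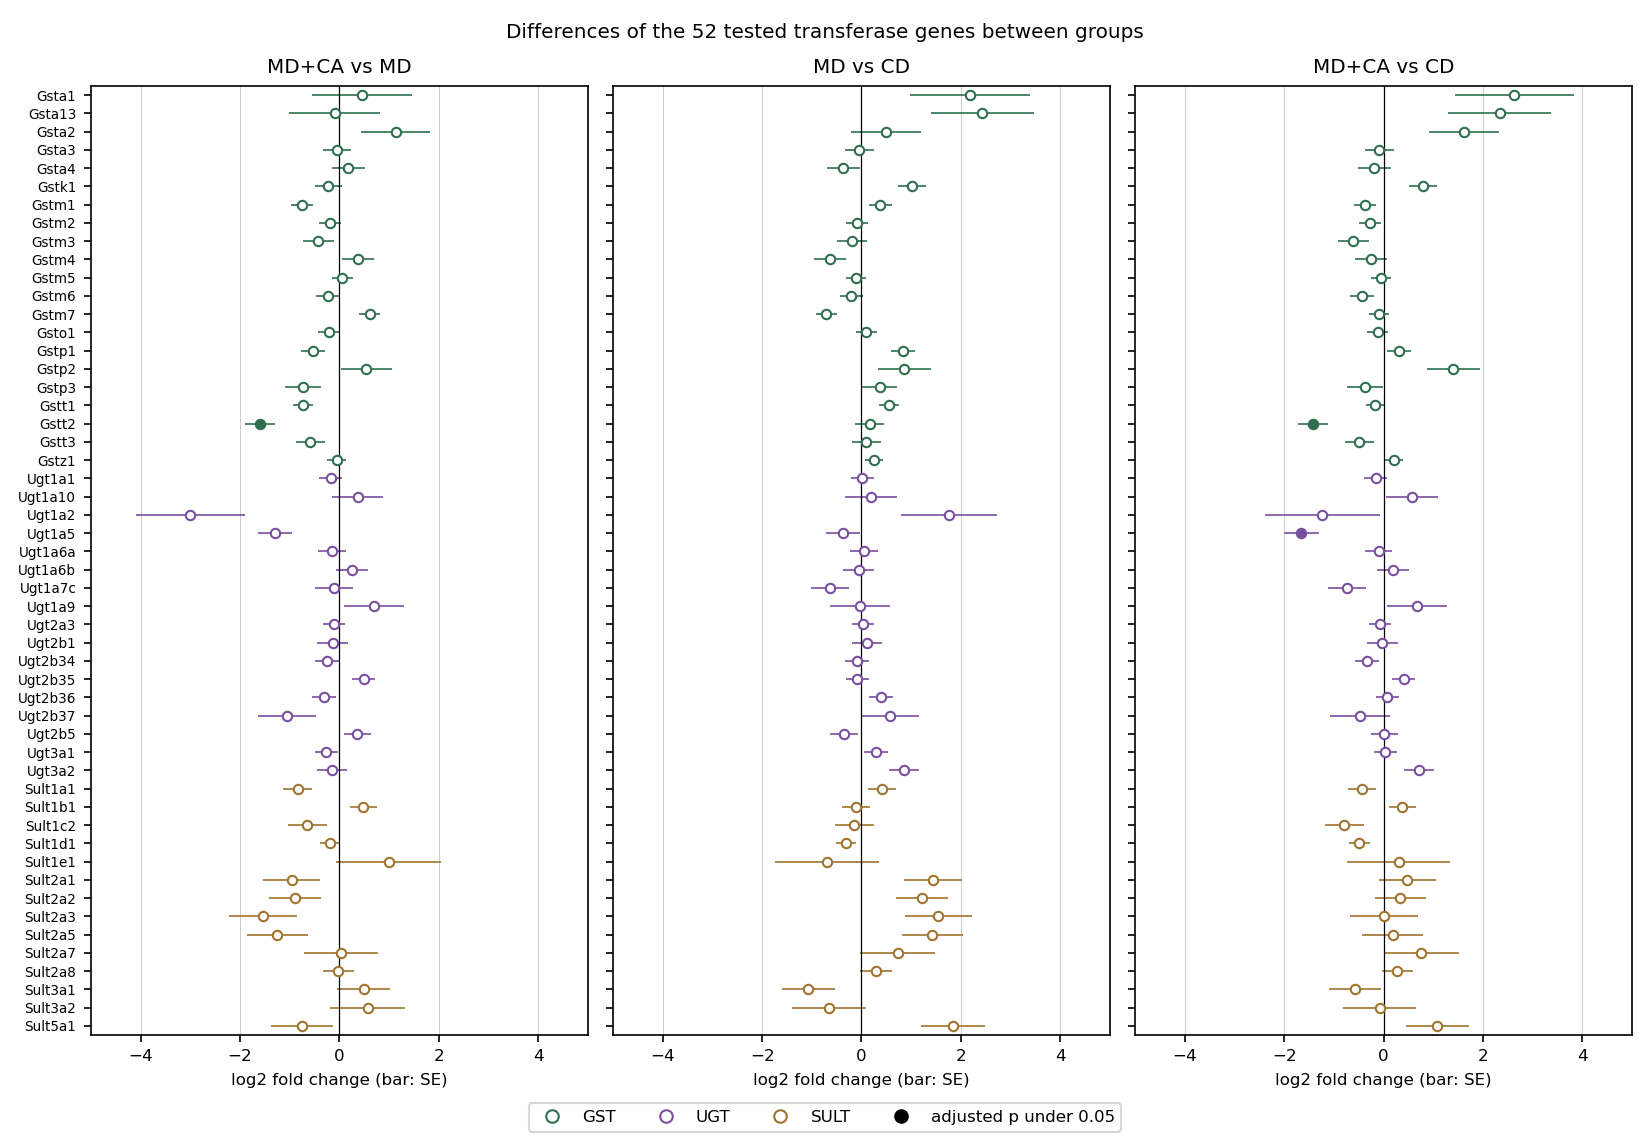
Log2 fold change of the 52 tested genes in the 3 comparisons, with bars of 1 standard error and filled points for an adjusted p under 0.05. Gstt2 is the filled point of MD+CA vs MD, Gstt2 and Ugt1a5 are those of MD+CA vs CD, and no point is filled in MD vs CD.

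Gstt2 gave the firmest difference of the families. It encodes a theta class enzyme, a class that acts on small halogenated compounds and sulfate esters. Gstt2 had 69.5, 45.5, 24.9 and 30.6 CPM in the MD+CA libraries, 143, 146, 106.3 and 121 CPM in the MD libraries and 144, 79.3, 96.8 and 139 CPM in the CD libraries. With all its transcripts counted, every MD+CA library was below every MD and every CD library. The means were 42.6 ± 19.9 CPM in MD+CA, 129 ± 18.8 CPM in MD and 115 ± 31.6 CPM in CD (SD, n = 4). Gstt2 fell in MD+CA by 1.60 on the log2 scale relative to MD (SE 0.30, edgeR adjusted p = 0.0179) and by 1.43 relative to CD (SE 0.30, adjusted p = 0.049). MD and CD overlapped, with 0.17 as log2 fold change (adjusted p = 0.774). The call against MD held when any single library was left out, with adjusted p-values up to 0.0487 over all alternatives. The call against CD held without MD 2 or MD+CA 1 but was lost on leaving out any of the other 10 libraries, and over these 12 fits the log2 fold change lay between -1.77 and -1.26. Without the 3 short-fragment libraries the log2 fold change was -1.75 in MD+CA vs MD (adjusted p = 0.0487), -1.77 in MD+CA vs CD (adjusted p = 0.0332) and -0.02 in MD vs CD. Transcripts without a coding sequence took 8.31 to 42.05% of Gstt2 reads. On coding transcripts alone Gstt2 had 61.6, 38.1, 22.9 and 23.9 CPM in MD+CA and 77.7 to 118 CPM in MD. In CD it had 110, 57.5, 56.1 and 113 CPM, so MD+CA 1 lay above CD 2 and CD 3. With only coding transcripts counted, no member was called in MD+CA vs CD.

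The means of Gstt1 and Gstt3 were also lower in MD+CA than in MD, and neither passed the adjusted test. Gstt1 had 54.5, 54.6, 72.5 and 72.4 CPM in the MD+CA libraries, 139, 90.9, 97.8 and 91.9 CPM in the MD libraries and 62.0, 65.3, 77.8 and 79.3 CPM in the CD libraries. The 4 MD libraries were above all 8 others, MD 1 most of all, and MD+CA and CD overlapped. Its log2 fold change was -0.72 (SE 0.20, adjusted p = 0.0607) in MD+CA vs MD and 0.56 (SE 0.20, adjusted p = 0.157) in MD vs CD. They were -0.51 (adjusted p = 0.269) and 0.41 (adjusted p = 0.538) without the 3 short-fragment libraries. Gstt3 had -0.58 as log2 fold change (SE 0.29, adjusted p = 0.243) in MD+CA vs MD, with means of 29.5 ± 10.2 CPM in MD+CA, 44.1 ± 9.63 CPM in MD and 41.3 ± 13.3 CPM in CD, and its groups overlapped. Theta transcripts together summed to 187 ± 33.7 TPM in MD+CA, 346 ± 30.4 TPM in MD and 335 ± 58.8 TPM in CD (SD, n = 4). The 3 tested theta genes kept their signs in all 3 comparisons under RLE and upper-quartile scaling, DESeq2 and limma voom. These settings use the same counts of the same libraries, so a sign could hardly turn. Without the 3 short-fragment libraries the sign of Gstt2 in MD vs CD did turn, at -0.0153.

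**Figure D4:**
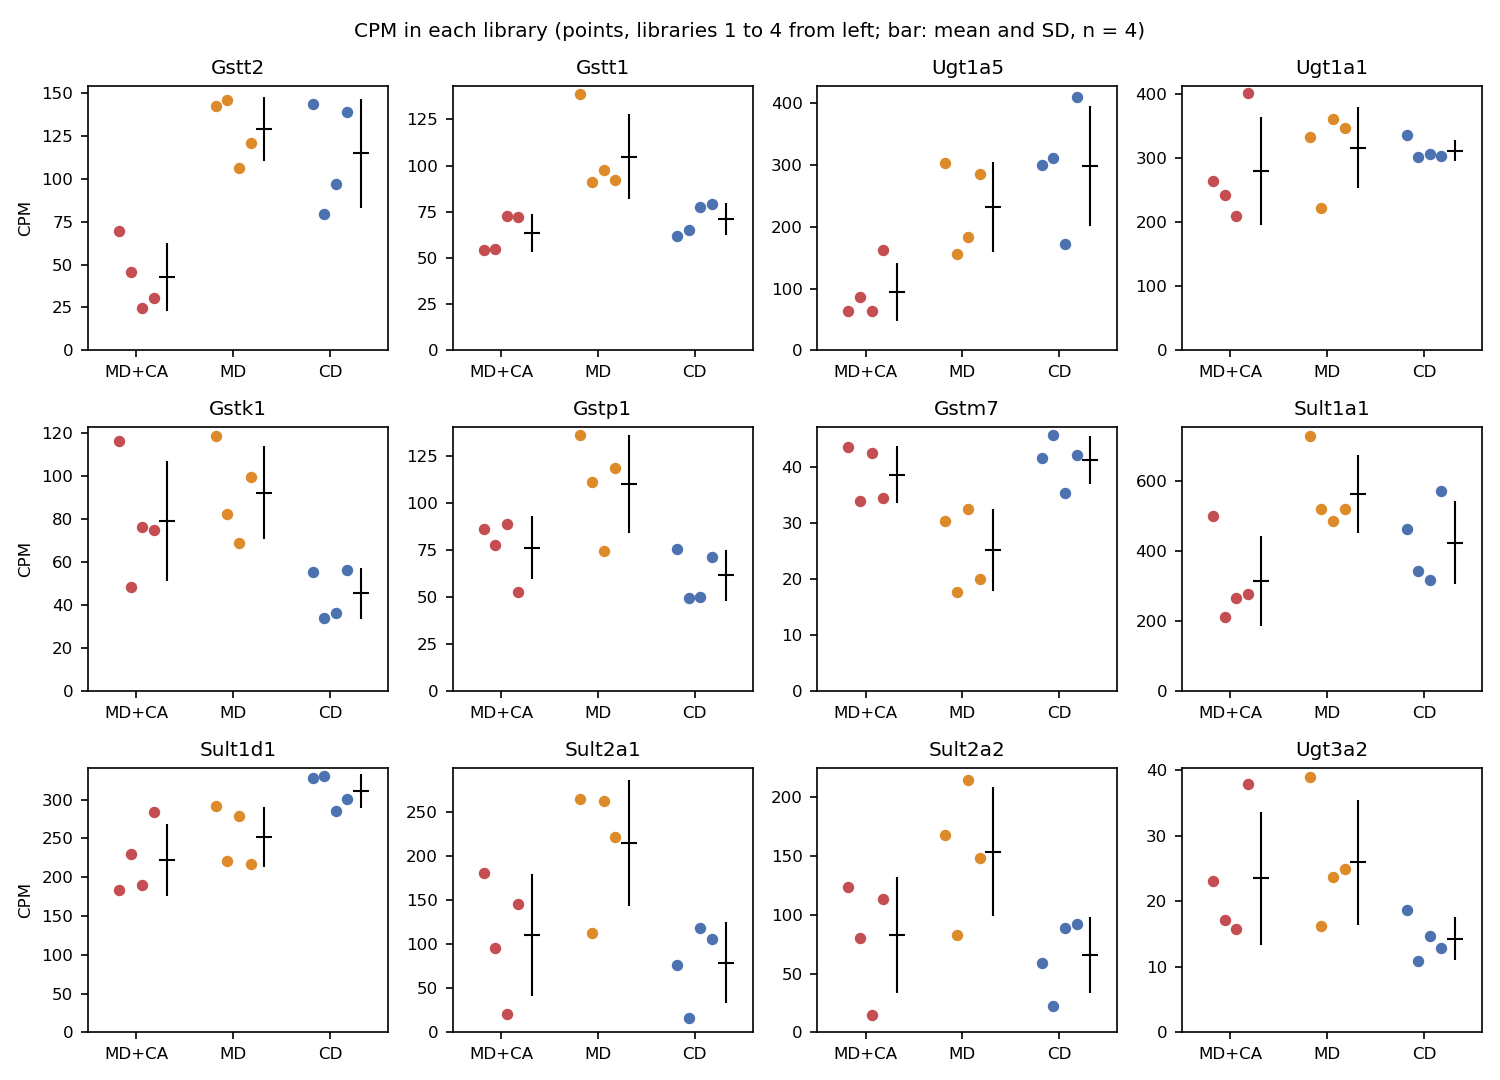
CPM of 12 transferase genes in each library (points, libraries 1 to 4 from left), with the mean and SD of each group beside the points, MD+CA left of MD and CD. The 4 MD+CA points of Gstt2 lie between 24.9 and 69.5 CPM, under all MD and CD points, while the Sult2a1 and Sult2a2 points spread widely in each group.

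Ugt1a5 was the other gene called. Ugt1a5 had 64.4, 86.9, 63.9 and 163 CPM in the MD+CA libraries, 303, 156, 183 and 285 CPM in the MD libraries and 299.8, 311, 173 and 409 CPM in the CD libraries. MD+CA 4 lay just above MD 2, so MD+CA and MD overlapped, whereas all MD+CA libraries were below all CD libraries. The log2 fold change was -1.66 in MD+CA vs CD (SE 0.35, edgeR adjusted p = 0.049). In MD+CA vs MD it was -1.29 (SE 0.35, adjusted p = 0.0567), above the threshold, and it passed in 8 of 25 alternatives. The call against CD held without CD 3, MD 2 or MD+CA 4 and was lost when any of the other 9 libraries was left out, and over these 12 fits the log2 fold change lay between -2.06 and -1.47. It was also lost without the 3 short-fragment libraries (-1.51, adjusted p = 0.0992). MD and CD did not differ detectably in Ugt1a5, with -0.36 as log2 fold change (SE 0.34, adjusted p = 0.563).

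The make-up of the locus was taken from the same estimated counts. It rests on the same division of shared reads and is not a separate measure of Ugt1a5. Ugt1a5 took 13.7, 17.9, 16.3 and 22.4% of the reads of the 9 Ugt1a genes in MD+CA, 40.0, 35.1, 25.1 and 35.6% in MD and 38.5, 41.3, 28.1 and 47.9% in CD. No MD+CA library reached the lowest MD or CD library. The share of Ugt1a1 was 53.8 ± 2.82% in MD+CA, 46.7 ± 3.57% in MD and 42.1 ± 5.95% in CD (SD, n = 4). Ugt1a1 itself had 279.5 ± 84.6 CPM in MD+CA, 316 ± 63.0 CPM in MD and 312 ± 16.6 CPM in CD, and its log2 fold change in MD+CA vs MD was -0.17 (SE 0.23, adjusted p = 0.679). All 9 genes together came to 518 ± 145 CPM in MD+CA, 683 ± 162 CPM in MD and 750.3 ± 99.5 CPM in CD. In a fit with the near-identical members summed as 1 unit, Ugt1a5 has no value of its own and the Ugt1a sum was not called.

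The rest of the locus showed small or poorly measured differences. Ugt1a2, whose coding end is the one shared with Ugt1a5, reached at most 4.48 CPM and had 0 reads in MD+CA 2, MD+CA 3 and MD 3, with -3.00 as log2 fold change (SE 1.09, adjusted p = 0.124) in MD+CA vs MD. Ugt1a6a, a phenol-conjugating enzyme, had means of 57.9 ± 18.7 CPM in MD+CA, 64.1 ± 22.3 CPM in MD and 62.0 ± 1.48 CPM in CD. Its reads fell partly on a transcript without a coding sequence, which took 28.4 to 30.6% of them in MD+CA, 36.7% up to all of them in MD and 51.0 to 54.6% in CD. The library with all of them was MD 2, where no read was assigned to a coding transcript of the gene. Ugt1a6b, Ugt1a7c, Ugt1a9 and Ugt1a10 had adjusted p-values above 0.05 in all 3 comparisons, with means between 0.852 ± 0.495 and 48.4 ± 13.1 CPM over the groups.

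**Figure D5:**
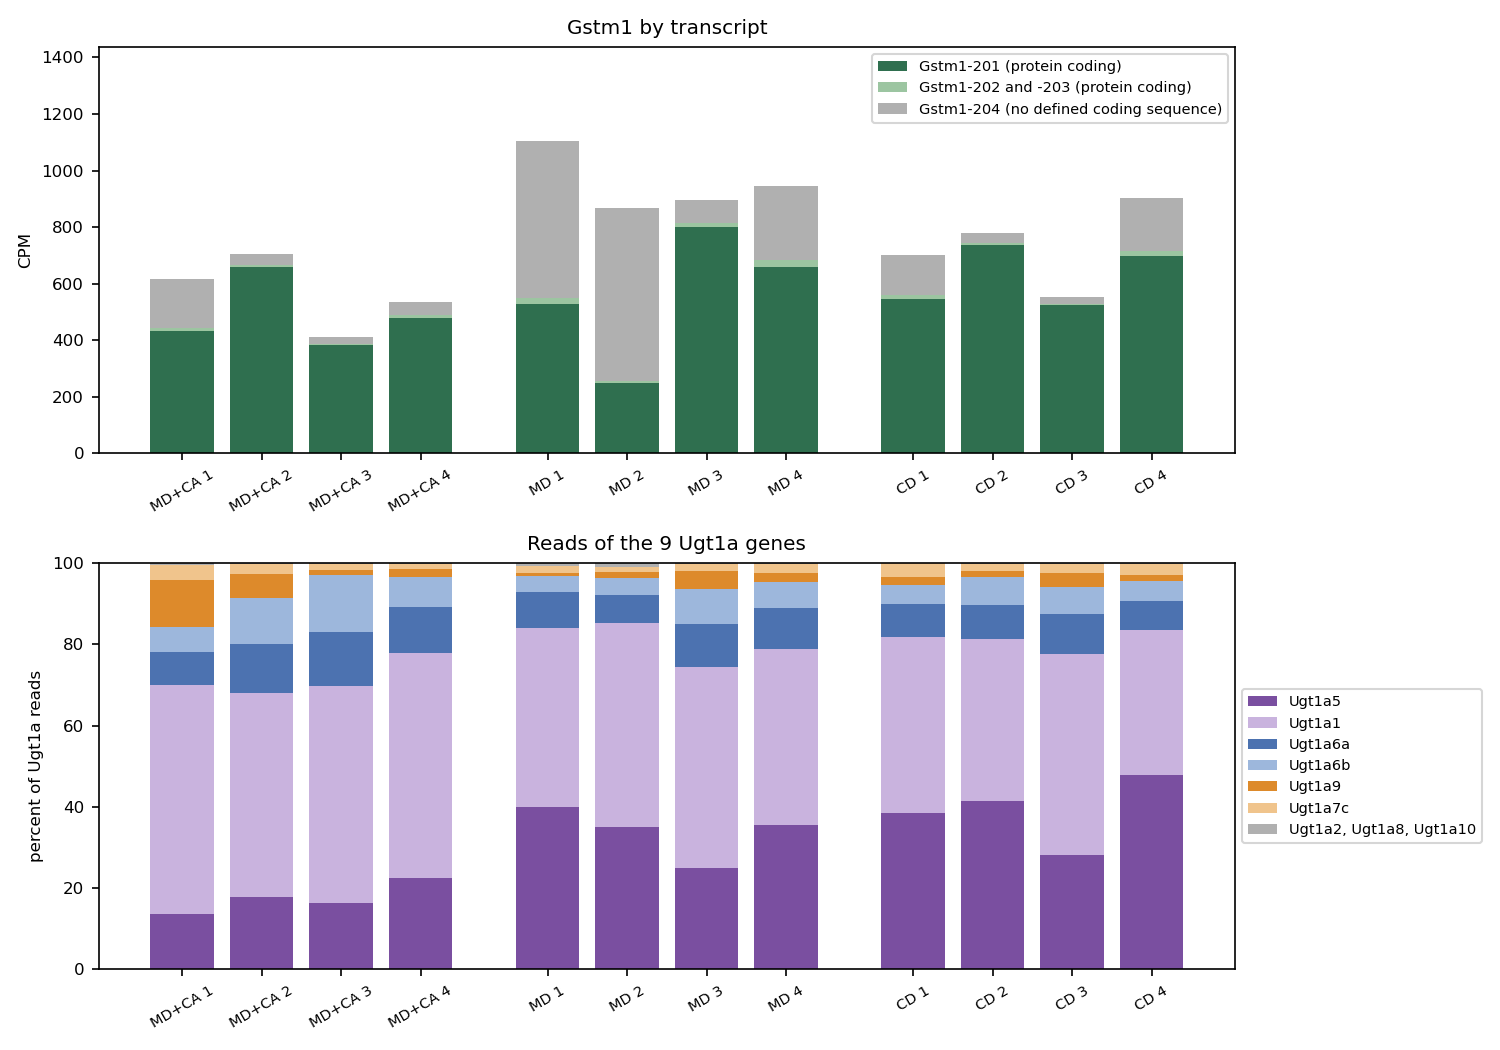
Upper panel, CPM of Gstm1 in each library by transcript, with the noncoding transcript in grey. Lower panel, percent of the reads of the 9 Ugt1a genes that each gene took in each library, where the Ugt1a5 segment spans 13.7 to 22.4% in MD+CA and 25.1 to 47.9% in the MD and CD libraries.

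Promoter sequences from RefSeq were searched for 5 short motifs on both strands, over 250 bases before to 50 bases after each start. A promoter was given for 56 of the 66 genes. It was not given for Gsta4, Gsta5, Gsta13, Gstt2, Sult2a1, Sult2a2, Sult2a7, Sult4a1, Ugt1a6b and Ugt3a2. The promoters of Ugt1a5 and Ugt1a1 are shown because these genes of the same locus differed in how they stood between the groups, and that of Gstt1 because it is the theta gene after Gstt2 with the smallest p. They are in build GRCm38.p6, 5′ to 3′ on the gene's strand, with a matched motif in capitals.
Ugt1a5, chr1:88165762-88166061, plus strand: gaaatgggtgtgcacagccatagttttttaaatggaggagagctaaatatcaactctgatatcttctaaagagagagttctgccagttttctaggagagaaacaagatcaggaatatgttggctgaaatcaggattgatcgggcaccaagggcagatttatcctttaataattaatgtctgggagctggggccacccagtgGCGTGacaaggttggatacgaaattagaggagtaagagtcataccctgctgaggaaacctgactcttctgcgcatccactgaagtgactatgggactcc
Ugt1a1, chr1:88211709-88212008, plus strand: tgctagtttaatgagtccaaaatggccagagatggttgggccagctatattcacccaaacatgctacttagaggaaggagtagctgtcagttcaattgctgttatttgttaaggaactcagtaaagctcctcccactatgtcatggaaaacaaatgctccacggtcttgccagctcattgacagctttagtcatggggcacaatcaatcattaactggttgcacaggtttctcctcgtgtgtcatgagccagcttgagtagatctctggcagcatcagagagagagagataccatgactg
Gstt1, chr10:75797682-75797981, minus strand: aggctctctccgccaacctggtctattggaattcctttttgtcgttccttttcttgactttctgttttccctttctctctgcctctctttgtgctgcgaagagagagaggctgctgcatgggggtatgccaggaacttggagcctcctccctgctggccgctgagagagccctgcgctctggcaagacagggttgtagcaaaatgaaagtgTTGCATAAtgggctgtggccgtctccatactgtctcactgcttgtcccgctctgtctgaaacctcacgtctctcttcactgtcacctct
In the Ugt1a5 window the capitals are GCGTG, the core of the element that AhR binds, starting at -49 from the start site. The Gstt1 window holds a match to TTATGNAA, the D-box, at -39 on the opposite strand, and the Ugt1a1 window holds none of the motifs. Nor does the window of Ugt1a2, which lies between Ugt1a5 and Ugt1a1 and is not shown. GCGTG is common, with 32.4% of 32851 promoters holding it, and 11 of the 56 genes did. TTATGNAA was in 3.38% of promoters and in those of 4 members, Gstt1, Ugt1a9, Ugt1a10 and Ugt2b1. TGACNNNGC, the core of the element NRF2 binds, was in 12.4% of promoters and in those of 3 members, Gsta3, Gstm5 and Gstm7. Neither CACGTG (7.15% of promoters) nor the HNF1 motif (0.00913%) was in a member's window. A match describes letters in the window and does not show that a factor binds there.

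In the mu class, Gstm1 was the gene whose value depended most on which transcripts were counted. Gstm1 had 617, 703, 413 and 535 CPM in the MD+CA libraries, 1105, 869, 894 and 946 CPM in the MD libraries and 701, 781, 553 and 902 CPM in the CD libraries. All MD+CA libraries were below all MD libraries, and the log2 fold change was -0.75 (SE 0.23, adjusted p = 0.0788) in MD+CA vs MD, where it passed in 2 of 26 alternatives. It was -0.74 (adjusted p = 0.240) without the 3 short-fragment libraries. A part of these reads was assigned to Gstm1-204, a transcript with no defined coding sequence, which had 171.7, 38.2, 26.3 and 44.5 CPM in MD+CA, 555.5, 613.5, 81.2 and 262 CPM in MD and 142.1, 36.9, 25.7 and 187.3 CPM in CD. It took 70.6% of the reads of the gene in MD 2 and 50.3% in MD 1, the libraries with the shortest fragments. On coding transcripts alone Gstm1 had 445, 665, 386 and 490.0 CPM in MD+CA, 549.7, 256, 813 and 684 CPM in MD and 559, 744, 527 and 715 CPM in CD. These groups overlapped, and the log2 fold change in MD+CA vs MD became -0.24 (adjusted p = 0.668). A fit that corrects for transcript length gave -1.48 (adjusted p = 0.0627). The part of fragment length in the difference was not tested.

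Gstm7 differed the other way. It had 43.4, 34.0, 42.4 and 34.5 CPM in the MD+CA libraries, 30.4, 17.7, 32.5 and 20.1 CPM in the MD libraries and 41.5, 45.7, 35.3 and 42.1 CPM in the CD libraries. All 4 MD libraries were below all 8 others, and MD+CA overlapped CD. Its log2 fold change was 0.61 (SE 0.21, adjusted p = 0.106) in MD+CA vs MD and -0.71 (SE 0.21, adjusted p = 0.121) in MD vs CD. Of the other mu genes, Gstm2, Gstm3, Gstm4, Gstm5 and Gstm6 had log2 fold changes between -0.42 and 0.38 in MD+CA vs MD, between -0.64 and -0.09 in MD vs CD and between -0.61 and -0.05 in MD+CA vs CD, none of which passed. Their means over the groups ran from 6.69 ± 1.29 CPM for Gstm5 to 81.2 ± 13.7 CPM for Gstm2.

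No alpha class gene was called. Gsta3 had 789.9, 640.4, 773 and 919.8 CPM in the MD+CA libraries, 739.8, 375, 1224 and 885 CPM in the MD libraries and 728, 896, 841 and 853 CPM in the CD libraries. MD 2 was lowest and MD 3 highest of all 12, and the groups overlapped, with log2 fold changes of -0.05 in MD+CA vs MD and -0.04 in MD vs CD. Gsta4, which conjugates the lipid peroxidation product 4-hydroxynonenal, averaged 62.6 ± 25.1 CPM in MD+CA, 55.3 ± 25.3 CPM in MD and 71.5 ± 13.9 CPM in CD, and its log2 fold change was -0.37 (SE 0.33, adjusted p = 0.547) in MD vs CD. Gsta2 had 80.6, 36.0, 3.04 and 12.5 CPM in the MD+CA libraries, 13.2, 5.50, 27.7 and 13.8 CPM in the MD libraries and 11.5, 17.4, 4.203 and 9.94 CPM in the CD libraries, and its high values were those of MD+CA 1 and MD+CA 2 alone. Its log2 fold change was 1.62 (SE 0.71, adjusted p = 0.414) in MD+CA vs CD, and 0.69 (adjusted p = 0.687) without the 3 short-fragment libraries. Gsta1 and Gsta13 stayed at or under 7.24 CPM in all libraries, share most of their sequence and had log2 fold changes of 2.63 and 2.34 in MD+CA vs CD, neither of which passed.

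Means of Gstk1, Gstp1 and Gstz1 (kappa, pi and zeta class) were higher in MD than in CD, and none was called. Gstk1, an enzyme of mitochondria and peroxisomes, had 117, 48.7, 76.5 and 75.1 CPM in the MD+CA libraries, 119, 82.4, 69.0 and 99.6 CPM in the MD libraries and 55.4, 34.0, 36.7 and 56.4 CPM in the CD libraries. All MD libraries were above all CD libraries, and MD+CA overlapped both. Its log2 fold change was 1.02 (SE 0.27, adjusted p = 0.115) in MD vs CD and 0.79 (SE 0.27, adjusted p = 0.247) in MD+CA vs CD. The MD vs CD value passed with DESeq2 (adjusted p = 0.0177), with limma voom (0.0400) and without the low-count filter (0.0339), and it did not pass in the other 23 alternatives. Without the 3 short-fragment libraries it was 0.88 (adjusted p = 0.404). Gstz1 had 719, 565, 728 and 715 CPM in the MD+CA libraries, 724, 639.6, 772 and 692 CPM in the MD libraries and 554, 615, 602 and 597 CPM in the CD libraries, and MD lay above CD without overlap, at a fitted log2 difference of 0.26 (SE 0.19, adjusted p = 0.447). The low MD+CA library was MD+CA 2, at 565 CPM.

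Gstp1, the main pi class enzyme, had 86.2, 77.4, 88.9 and 52.7 CPM in the MD+CA libraries, 136, 111, 74.4 and 119 CPM in the MD libraries and 75.3, 49.7, 49.9 and 71.1 CPM in the CD libraries. MD 3 was below the highest CD library, and the other MD libraries were above all CD libraries. Its log2 fold change was 0.84 (SE 0.24, adjusted p = 0.119) in MD vs CD and -0.53 (SE 0.24, adjusted p = 0.201) in MD+CA vs MD. Without the 3 short-fragment libraries the MD vs CD value was 0.65 (adjusted p = 0.498). Transcripts without a coding sequence took 38.4% of Gstp1 reads in MD 2, 24.8% in MD 1 and 24.3% in MD+CA 1, and 9.53 to 16.4% in the other libraries. Gstp2 stayed at or under 6.96 CPM, with 1.40 as log2 fold change (SE 0.54, adjusted p = 0.317) in MD+CA vs CD, and Gstp3 had -0.73 (SE 0.36, adjusted p = 0.24) in MD+CA vs MD. Gsto1, the omega class enzyme that reduces dehydroascorbate, averaged 46.2 ± 5.19 CPM in MD+CA, 53.4 ± 14.7 CPM in MD and 50.0 ± 4.18 CPM in CD and its adjusted p was 0.572 in MD+CA vs MD. Transcripts without a coding sequence took 42.2% of its reads in MD 2 and 22.4% in MD 1, and 0.986 to 3.98% elsewhere.

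UGT2 and UGT3 genes showed no called difference. The UGT2B enzymes conjugate steroids, bile acids and many drugs. Ugt2b5 averaged 219 ± 45.6 CPM in MD+CA, 170.0 ± 62.1 CPM in MD and 216 ± 44.3 CPM in CD and had 0.36 as log2 fold change (SE 0.28, adjusted p = 0.452) in MD+CA vs MD. Ugt2b36 averaged 148 ± 42.9 CPM in MD+CA, 184 ± 30.9 CPM in MD and 140.1 ± 29.0 CPM in CD, with -0.31 (SE 0.24, adjusted p = 0.453). Both genes overlapped between all groups. Ugt2b34, the UGT2B gene with most reads, averaged 241 ± 63.9 CPM in MD+CA, 287 ± 59.3 CPM in MD and 304 ± 51.7 CPM in CD, and its log2 fold change was -0.34 (SE 0.24, adjusted p = 0.741) in MD+CA vs CD. Ugt2b1, Ugt2b35, Ugt2b37 and Ugt2a3 had adjusted p-values of 0.227 for Ugt2b35 and above for the rest in MD+CA vs MD. Ugt3a2 belongs to a subfamily whose human members use sugar donors other than glucuronate. It had 23.1, 17.1, 15.8 and 38.0 CPM in the MD+CA libraries, 39.0, 16.2, 23.7 and 24.9 CPM in the MD libraries and 18.7, 10.9, 14.8 and 12.9 CPM in the CD libraries, MD 2 lay among the CD values, and its log2 fold change was 0.86 (SE 0.31, adjusted p = 0.157) in MD vs CD and 0.71 (SE 0.31, adjusted p = 0.396) in MD+CA vs CD. They were 0.76 (adjusted p = 0.5004) and 0.72 (adjusted p = 0.318) without the 3 short-fragment libraries. Ugt3a1 averaged 124 ± 28.7 CPM in MD+CA, 149 ± 45.0 CPM in MD and 121 ± 16.1 CPM in CD, with an adjusted p of 0.499 in MD vs CD.

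Among the SULT1 genes, Sult1a1 had 500.2, 213, 267 and 279 CPM in the MD+CA libraries, 726, 519, 485 and 519.8 CPM in the MD libraries and 462, 343, 316 and 572 CPM in the CD libraries. MD+CA 1 lay within the MD range and the other 3 MD+CA libraries were below all MD libraries. The log2 fold change was -0.84 (SE 0.29, adjusted p = 0.106) in MD+CA vs MD and 0.41 (SE 0.28, adjusted p = 0.421) in MD vs CD. Without the 3 short-fragment libraries the Sult1a1 value in MD+CA vs MD was -0.99 (adjusted p = 0.149), and it passed in 3 of 26 alternatives. Sult1d1 had 183, 230.3, 190.0 and 284 CPM in the MD+CA libraries, 291, 220.4, 279 and 216 CPM in the MD libraries and 328, 330.3, 285 and 300.3 CPM in the CD libraries, with every MD+CA library below every CD library and -0.49 as log2 fold change (SE 0.20, adjusted p = 0.383). Of Sult1d1 reads, 0 to 26.3% fell on transcripts without a coding sequence. On coding transcripts alone MD+CA 4, at 243.4 CPM, lay above CD 3 (222.9 CPM) and CD 4 (242.9 CPM), so these groups overlapped. Sult1c2 had 9.001, 4.01, 4.30 and 14.3 CPM in the MD+CA libraries, 12.3, 6.31, 20.9 and 10.0 CPM in the MD libraries and 11.3, 15.8, 16.1 and 11.8 CPM in the CD libraries, with overlap between all groups and -0.79 (SE 0.39, adjusted p = 0.533) in MD+CA vs CD. Sult1b1, which sulfates thyroid hormone, averaged 52.4 ± 13.1 CPM in MD+CA, 37.5 ± 14.0 CPM in MD and 40.5 ± 7.61 CPM in CD and had an adjusted p of 0.301 in MD+CA vs MD. Sult1e1, the estrogen sulfotransferase, ranged from 0.178 to 24.0 CPM, its highest value being CD 4, and no comparison passed.

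The Sult2a genes form a cluster of near copies that sulfate bile acids and steroids such as dehydroepiandrosterone. Sult2a1 had 180.2, 95.6, 20.4 and 145 CPM in the MD+CA libraries, 265, 113, 262 and 221 CPM in the MD libraries and 76.6, 16.1, 118 and 105.5 CPM in the CD libraries. MD 2 lay within the CD range, the other MD libraries were above all CD libraries, and MD+CA spanned from the low end of CD into the gap below MD 4. Sult2a2 had 124, 80.0, 14.9 and 113 CPM in the MD+CA libraries, 168, 82.8, 215 and 149 CPM in the MD libraries and 59.2, 22.3, 89.1 and 92.3 CPM in the CD libraries. It followed Sult2a1 from library to library, and the groups overlapped. The 2 genes share 39.9% of the stretches of Sult2a1. Log2 fold changes in MD vs CD were 1.44 (SE 0.58, adjusted p = 0.195) for Sult2a1, 1.22 (SE 0.52, adjusted p = 0.215) for Sult2a2, 1.55 (SE 0.68, adjusted p = 0.224) for Sult2a3 and 1.43 (SE 0.62, adjusted p = 0.221) for Sult2a5. In MD+CA vs MD that of Sult2a3 was -1.54 (SE 0.68, adjusted p = 0.191). None of these passed, and without the 3 short-fragment libraries the Sult2a1 value in MD vs CD was 1.61 (adjusted p = 0.498). Over the SULT2 genes tested, 6 of 6 were above 0 in MD vs CD with a median of 1.33, beside 0.04 over all genes, and 5 of 6 were below 0 in MD+CA vs MD with a median of -0.92. The MD vs CD count was the same under every scaling and tool tried, and the MD+CA vs MD count below 0 was 4 with the transcript length offset and 6 with upper-quartile scaling or limma voom. In MD+CA vs CD 6 of 6 were above 0 with a median of 0.31, and 3 of 6 with limma voom. The 6 genes are not 6 separate observations, since all were measured in the same libraries. Sult2a1, Sult2a2, Sult2a3 and Sult2a5 also share sequence, while Sult2a7 has 99.7% of its stretches to itself. Sult2a8, which has 97.1% of its stretches to itself, averaged 201 ± 111 CPM in MD+CA, 203 ± 54.8 CPM in MD and 166 ± 21.5 CPM in CD, with adjusted p-values of 0.98 in MD+CA vs MD and 0.619 in MD vs CD. It took 50.8 ± 15.2% of Sult2a reads in MD+CA, 33.4 ± 8.76% in MD and 53.3 ± 16.4% in CD. Sult2a7 stayed at or under 14.0 CPM.

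Sult3a1 had 15.2, 25.0, 76.2 and 93.5 CPM in the MD+CA libraries, 68.4, 46.3, 21.4 and 13.0 CPM in the MD libraries and 58.8, 67.8, 97.7 and 88.5 CPM in the CD libraries. The MD+CA libraries split into a low and a high pair, and its log2 fold change was -1.07 (SE 0.53, adjusted p = 0.277) in MD vs CD. Sult3a2 stayed at or under 2.77 CPM. Sult5a1 had 4.13, 10.1, 8.48 and 10.2 CPM in the MD+CA libraries, 17.7, 30.9, 2.63 and 4.78 CPM in the MD libraries and 5.94, 4.05, 0.894 and 4.52 CPM in the CD libraries. MD 1 and MD 2 were high and the other MD libraries lay in the CD range, with 1.84 as log2 fold change (SE 0.64, adjusted p = 0.152) in MD vs CD. Without MD 1, MD 2 and MD+CA 1 this became -0.07.

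The 14 genes under the read filter were Gsta5, Gsto2, Gstt4, Sult1c1, Sult2a4, Sult2a6, Sult2b1, Sult4a1, Sult6b1, Sult6b2, Ugt1a8, Ugt2a1, Ugt2a2 and Ugt2b38. Sult1c1, Sult6b1, Sult6b2 and Ugt2a1 had 0 reads in all 12 libraries, which allows up to 0.203 to 0.380 CPM per library, counting error alone considered. Sult2b1, the cholesterol sulfotransferase, had 1 read in all and Ugt2a2 had 2. The most abundant of the 14 was Ugt2b38 with 86.8 reads over the 12 libraries and at most 18.5 in one. All 11.1 reads of Ugt1a8 were in MD 1.

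Genes that supply the conjugating enzymes were compared from lists. Of 11 tested genes of glutathione supply and recycling (13 listed), 1 was called in MD+CA vs MD, against 2.71% of all genes. This was Cbs, the first enzyme of the transsulfuration route to cysteine, with 426, 229, 312 and 339 CPM in the MD+CA libraries, 192, 136, 154 and 127 CPM in the MD libraries and 342, 225, 166 and 239 CPM in the CD libraries. Cbs rose in MD+CA by 1.102 relative to MD on the log2 scale (adjusted p = 0.0371), and all MD+CA libraries were above all MD libraries. No gene of this list was called in MD vs CD or in MD+CA vs CD. Of 4 tested genes among 6 other glutathione transferases, the microsomal Mgst3 was called. It fell in MD+CA by 1.09 relative to MD (adjusted p = 0.0215), with 12.6, 8.10, 7.47 and 8.65 CPM in the MD+CA libraries, 27.7, 16.3, 16.7 and 17.7 CPM in the MD libraries and 10.7, 10.7, 11.4 and 12.6 CPM in the CD libraries. Every MD library was above all MD+CA and CD libraries for Mgst3. The Cbs call held in 16 of 26 alternatives, with log2 fold changes between 0.95 and 1.44, and the Mgst3 call in 22 of 26, between -1.28 and -0.87. None of 4 tested genes of UDP-glucuronate supply, 9 of PAPS supply and sulfate and 7 conjugate exporters was called in any comparison.

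Among 12 regulators of xenobiotic metabolism, 2 were called lower in MD+CA vs MD, against 1.64% of all genes, and none in the other comparisons. Nr1i3, which encodes the receptor CAR, had 169, 273, 154 and 198 CPM in the MD+CA libraries, 435, 431, 645 and 693 CPM in the MD libraries and 277, 268, 477 and 326 CPM in the CD libraries. Every MD+CA library was below every MD library, and the log2 fold change was -1.47 (SE 0.27, adjusted p = 0.0171). Nfe2l2, which encodes NRF2, had 62.0, 55.6, 44.1 and 53.3 CPM in the MD+CA libraries, 89.8, 148, 75.3 and 84.0 CPM in the MD libraries and 67.1, 67.8, 62.8 and 71.5 CPM in the CD libraries, with no overlap between MD+CA and MD and -0.89 (SE 0.22, adjusted p = 0.0437). The Nr1i3 call held in 25 of 26 alternatives, and the Nfe2l2 call in 12 of 26, being lost on leaving out any library other than MD 3 and MD+CA 1. Ahr, the receptor of cinnabarinic acid, had -0.41 as log2 fold change (SE 0.25, adjusted p = 0.329) in MD+CA vs MD.

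Few targets of these regulators outside the families were called. The shares of all genes called were 2.71% in MD+CA vs MD, 0.088% in MD vs CD and 0.528% in MD+CA vs CD. Of 7 tested CAR and PXR targets, 1 was called, Por, the reductase that feeds electrons to cytochromes P450, with 161, 183, 129.9 and 194 CPM in the MD+CA libraries, 295, 287, 551 and 525 CPM in the MD libraries and 359, 392, 367 and 428 CPM in the CD libraries. Por fell in MD+CA by 1.31 relative to MD (adjusted p = 0.0179) and by 1.21 relative to CD (adjusted p = 0.0445). Of 8 tested NRF2 targets, the heme oxygenase gene Hmox1 rose by 1.34 in MD+CA relative to MD (adjusted p = 0.0409). The glucose-6-phosphate dehydrogenase gene G6pdx fell by 1.93 in MD relative to CD (adjusted p = 0.0392) and fell by 1.66 in MD+CA relative to CD (adjusted p = 0.0315). Over 26 alternatives the calls held in 25 for Por in MD+CA vs MD, 15 for Por in MD+CA vs CD, 14 for Hmox1, and 14 and 15 for G6pdx in MD vs CD and MD+CA vs CD, always with the same sign. None of 4 tested AhR targets was called in any comparison. Cyp1a2 had -0.66 (SE 0.31, adjusted p = 0.212) in MD+CA vs MD, and Cyp1a1 was at or under 0.422 CPM in every library.

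Marker lists of other processes and cells also held called genes in MD+CA vs MD. In that comparison 1.64% of all genes tested were called lower and 1.06% higher, and in MD+CA vs CD 0.308% lower and 0.22% higher. Of 15 clock genes, 8 were called lower and 1, Bmal1, higher in MD+CA vs MD, and their summed level was 249 to 454 CPM in MD+CA, 769.9 to 1206 CPM in MD and 587 to 922 CPM in CD. The labels give no time of tissue collection. Of 9 tested immediate early genes, 7 were called lower, with sums of 81.1 to 158 CPM in MD+CA, 203 to 1852 CPM in MD and 68.2 to 351 CPM in CD. Of 7 Kupffer cell markers, 4 were called higher, Cd5l, Marco, C1qa and Vsig4, with sums of 318 to 684 CPM in MD+CA, 148 to 256 CPM in MD and 193 to 248 CPM in CD, and none of the 7 was at 0 in any library. In MD+CA vs CD, Bmal1 was called higher and Tef, Per3, Ciart and Dbp lower among the clock genes, and Cd5l and Marco higher among the Kupffer cell markers, all 7 of which had an unadjusted p under 0.05. No immediate early gene was called in MD+CA vs CD by edgeR, DESeq2 or limma voom, and 0 had an unadjusted p under 0.05 with edgeR. The 7 immediate early calls of MD+CA vs MD became 0 with limma voom and 8 with DESeq2, and 1 gene of that list, Jun, was called higher in MD vs CD. The part of these 3 lists in the differences of Gstt2 and Ugt1a5 was not tested.

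Sex-biased liver genes are of interest because SULT2, SULT3 and pi class genes are among those that differ between male and female mice. Of 13 female-biased genes outside the families, 4 were called lower in MD+CA vs MD, Acot3, Cux2, Fmo2 and Trim24, with sums of 1048 to 2129.8 CPM in MD+CA, 2208 to 2749.7 CPM in MD and 2651 to 3393 CPM in CD. In that comparison 1.64% of all genes were called lower and 1.06% higher. Of 12 tested male-biased genes, C6 was called higher, with sums of 217 to 812 CPM in MD+CA, 224 to 352 CPM in MD and 272 to 341 CPM in CD, the highest being MD+CA 3. In MD+CA vs CD 1 female-biased gene, Fmo2, was called lower. At an unadjusted p under 0.05, 8 of the 13 were lower there and 0 higher, against 4.37% of all genes lower. Their median log2 fold change was -0.92. In MD+CA vs MD 7 were lower and 1 higher at that threshold, against 11.6% of all genes lower. Of the male-biased genes, 3 were higher and 2 lower in each of these comparisons. The part of these genes in the SULT2 values was not tested.

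No gene was called among 8 hepatocyte, 10 pericentral, 10 periportal, 7 stellate cell, 6 endothelial, 5 cholangiocyte, 2 other immune and 2 neighbouring tissue markers tested, in any of the 3 comparisons. Of all genes tested, 0.088% were called in MD vs CD, 2.71% in MD+CA vs MD and 0.528% in MD+CA vs CD. So few markers without a call do not show an equal cell make-up. At an unadjusted p under 0.05, 3 of 6 endothelial markers were higher and 3 of 10 periportal lower in MD vs CD, with 0 the other way. The shares of all genes at that threshold were 10.5% higher and 9.4% lower. Stellate cell markers had 2 higher and 1 lower, pericentral 2 higher, cholangiocyte 1 higher and hepatocyte 1 lower. In MD+CA vs MD, 3 of 10 pericentral and 2 of 6 endothelial markers were lower and 2 of 2 other immune markers higher, again with 0 the other way. The shares of all genes there were 11.6% lower and 11.6% higher. Periportal and cholangiocyte markers had 1 higher and 1 lower each, and stellate cell and hepatocyte markers 1 higher each. Hepatocyte markers summed to 51082 to 68328 CPM in MD+CA, 38255 to 67212 CPM in MD and 59312 to 75846 CPM in CD, with MD 2 the lowest library. Ly6g, Prss1, Ins2 and Umod, markers of neutrophils, pancreas and kidney, had 0 reads in all 12 libraries. Neighbouring tissue markers summed to 70.4 to 162.7 CPM in MD+CA, 88.4 to 231.4 CPM in MD and 78.1 to 104.1 CPM in CD. Of the 2 tested, 1 was higher in MD vs CD at an unadjusted p under 0.05. Other immune markers summed to 14.6 to 41.6 CPM in MD+CA, 11.6 to 19.0 CPM in MD and 14.5 to 19.6 CPM in CD.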

How the data were processed

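RNA-seq was compared between 12 liver libraries in 3 groups of 4. Fastp, Salmon 1.10.3, DESeq2 and build GRCm39 are named in the submitters' processing notes; of their options and of the annotation release nothing is stated there. The deposited table of each library gives estimated counts per transcript, which are expected read numbers and not normalized, and TPM values scaled by the authors for length and depth, per the file headers. It lists 147556 transcripts of 56065 genes.

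Estimated counts were summed per gene and rounded. Genes were filtered with filterByExpr (minimum count 10), leaving 13631, and scaled with TMM factors, which all CPM values use. An edgeR 4.0.16 quasi-likelihood model with 1 mean per group and no covariate used the 12 libraries together, leaving 9 degrees of freedom for the spread and giving a common BCV (biological coefficient of variation) of 0.308, with Benjamini-Hochberg adjustment over all genes tested and a threshold of 0.05. The SE of a log2 fold change is its size divided by the square root of F. TPM and CPM sums over genes were not tested. Limits derived from 3 reads cover counting error only.

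The members and the gene lists were chosen with earlier results of these data known. The rule for genes named in full takes the called members, the 2 members of each family with the smallest p per comparison, and the 3 of each family with the highest median TPM, 20 genes in all. Other members are named to account for every gene, and called genes of the lists were named after their values were seen.

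Transcripts of GENCODE M21 were matched to the deposited ones (204 of 204 member transcripts, all of the same length) and used for 31-base stretches and the Ugt1a joints. That reference and the RefSeq promoters are of build GRCm38, not the build of the counts, so no coordinates were joined to the counts. Libraries of a group differed by more than sampling noise, and none was a duplicate.

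Alternatives were RLE and upper-quartile scaling, DESeq2 1.42.0, limma 3.58.1 voom with sample weights, no filter or a filter of 1 CPM in 4 libraries, a transcript length offset, a replicate block, fits to the 2 groups compared alone, protein-coding genes only, near-identical members summed and leaving out each library. Leaving out mitochondrial genes, noncoding transcripts or the 3 libraries with the shortest fragments was chosen after seeing the data. Software was R 4.3.3, Python 3.11.15, pandas 2.3.3, matplotlib 3.10.9 and numpy 2.4.6.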

Additional observations from a re-analysis of the deposited data

Results flagged for a closer look

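In 5 of 60 sets of 4 libraries (20 named genes in 3 groups), 1 library lay far from the other 3 by Dixon's ratio, past its 95% critical value. Chance gives about 1 such flag in 20 sets. Gstt1 in MD was highest in MD 1, at 138.7 CPM. Sult1a1 in MD was highest in the same library, at 726.0 CPM. Gstz1 in MD+CA was lowest in MD+CA 2, at 564.7 CPM. Ugt1a1 in CD was highest in CD 1, at 336.3 CPM, where the other 3 libraries lay close together. Ugt1a2 in CD was highest in CD 4, at 1.738 CPM, a level of few reads. MD 1 is among the libraries with the shortest fragments, and the part of fragment length in its values was not tested.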

How the results depend on the processing

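The Gstt2 call in MD+CA vs MD held under all 26 alternatives. Of 837 values of 33 gene comparisons, 835 kept their direction, 28 came to pass and 26 no longer passed. The 33 are those of the called members, of the 2 smallest p per family and comparison, and of an unadjusted p under 0.05. They were picked from these same libraries, mostly for a small p, so their direction could hardly turn and the count is no support. The reversed values, both in MD vs CD without the 3 short-fragment libraries, were -0.0153 for Gstt2 and -0.0745 for Sult5a1. The number of members called in MD+CA vs MD was 1 and became 5 with DESeq2, 3 with limma voom, 4 with no low-count filter, and 2 with protein-coding genes only or with upper-quartile scaling. Leaving out single libraries gave 1 to 4. In MD vs CD 0 were called, against 3 with DESeq2, 3 with limma voom and 3 with no low-count filter, and 0 on leaving out any library. In MD+CA vs CD 2 were called, against 0 with protein-coding transcripts only and with only the compared groups, and 1 with the short-fragment libraries left out, the near-identical members summed, the length offset or upper-quartile scaling. Leaving out single libraries gave 0 to 2. The cause of these changes was not tested. With the replicate number as a block, 4 members were called in MD+CA vs MD (Gstm1, Gstt2, Sult1a1 and Ugt1a5), 0 in MD vs CD and 2 in MD+CA vs CD. The labels do not tie the numbers together across groups. Deviations of same-numbered libraries correlated at -0.0778 to 0.371, over 0.1 in 8 of 12 pairs, so the numbers were not taken to pair the libraries, and not every library correlated best with its own number. In CPM in place of TPM the log2 ratio of the mean GST sums of MD+CA and MD was -0.30, against -0.49. At this depth the 14 members under the read filter could not be compared.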
